A study of Homo sapiens with 12 samples.

Results

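Translation initiation factors are the proteins that bring an mRNA, the initiator tRNA and the ribosomal subunits together at a start codon. The group described here was fixed by gene name, as the subunits of eIF1 to eIF6 with eIF2A, eIF2D and EIF4A3, and the cytoplasmic poly(A)-binding proteins with their binding partners, and it held 43 of the 15798 genes in the table of counts. The cells were HCT116, a human colorectal cancer line, treated for 24 h with the solvent DMSO or with 100 nM trametinib, which blocks the kinases MEK1 and MEK2 upstream of ERK. Both treatments received cycloheximide shortly before lysis, which holds ribosomes on their mRNAs. Randomly fragmented RNA of the lysates (input) and RNase I-protected fragments from monosomes (footprints) were sequenced, in 3 libraries for each assay and treatment, 12 in all. In the study, a part of each lysate was kept for input RNA and the rest was digested for footprints. Input and footprint libraries with the same treatment and number are therefore taken as 1 dish where a density per dish is given. The labels themselves do not state which libraries share a lysate. The question was which mRNAs change in ribosome density, the footprints of an mRNA relative to its input, when MEK is inhibited.

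In the usual route to a start codon, eIF4E binds the mRNA cap and is held by the scaffold eIF4G together with the helicase eIF4A, whose activity eIF4B and eIF4H raise. The small ribosomal subunit arrives with eIF3, eIF1, eIF1A, eIF5 and eIF2, the carrier of the initiator tRNA, and eIF2B reloads eIF2 with GTP after each round. Messages of the 5′TOP class, whose first base is a C within a terminal run of pyrimidines, encode ribosomal proteins, elongation factors and some of the initiation factors themselves, and their translation is known to depend on mTOR.

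Counts inside open reading frames summed to 2276693 to 2845568 in the input libraries and to 10127477 to 19181588 in the footprint libraries, and a gene was tested if 3 or more input libraries held 10 or more of its counts, which left 10663 genes. Levels are given as CPM, counts per 1000000 counts of the library after scaling by trimmed means (TMM), and changes as log2 of trametinib over DMSO ± standard error with Benjamini-Hochberg adjusted p-values of edgeR's quasi-likelihood test, called under 0.05. Because libraries were scaled against each other, a change that hits all mRNAs to the same degree cannot be seen, and in bulk libraries fewer expressing cells and less RNA per cell cannot be told apart. The ERK target DUSP6 had 266, 222 and 199 CPM in DMSO input and 1.96, 1.27 and 0 CPM in trametinib input. All 5 epithelial markers were present, at a summed 3519 to 6085 CPM in input, and 4 of 5 markers of other cells were in the table, at a summed 5.95 to 14.8 CPM. The DMSO libraries numbered 1 stood apart: their input and footprint values deviated from the group means together (Pearson's r = 0.841 across 5865 genes, a description, since genes do not replicate each other), against -0.137 to 0.357 for the other equal-numbered pairs. Where leaving them out changed a call of a gene described below or moved a called value by over 1.5 times, the value without them is given. The labels do not say whether samples of a group were separate cultures, so that p-values measure the spread between these samples.

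Of the 43 genes, 42 passed the filter and 1, EIF4A1, did not. Footprints fell for 29 of the 42 and rose for 0, with a median log2 change of -0.53 beside -0.01 over all tested genes, of which 25.6% fell and 23.9% rose. In input, 10 of the 42 fell and 1, EIF4B, rose, with a median of -0.14 beside 0.00 for all genes, of which 16.8% fell and 15.4% rose. Ribosome density fell for 3 of the 42, EIF4B, EIF3L and EIF2S3, and rose for 0, where 0.816% of all tested genes fell and 0.0938% rose. In neither footprints nor density did edgeR give a higher estimate with an unadjusted p under 0.05 for any of the 42, and DESeq2 called 0 of them higher in either. The CPM of all trametinib libraries lay below all DMSO libraries in 16 of the 42 in input and 31 of the 42 in footprints, where 23.6% and 26.8% of all tested genes did so. The median density change was -0.19 beside 0.07, and 27 of the 42 estimates lay below 0, as did 4334 of all 10663. Together the 43 genes took 1.58% ± 0.0276 of DMSO input counts and 1.61% ± 0.0237 of trametinib input counts (SD, n = 3, exact permutation test, two-sided, p = 0.2). Their share of footprints went from 1.38% ± 0.0330 to 1.13% ± 0.0444 with no overlap between the groups (p = 0.1 in the exact permutation test, the smallest that 3 against 3 libraries allow).

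**Figure D1:**
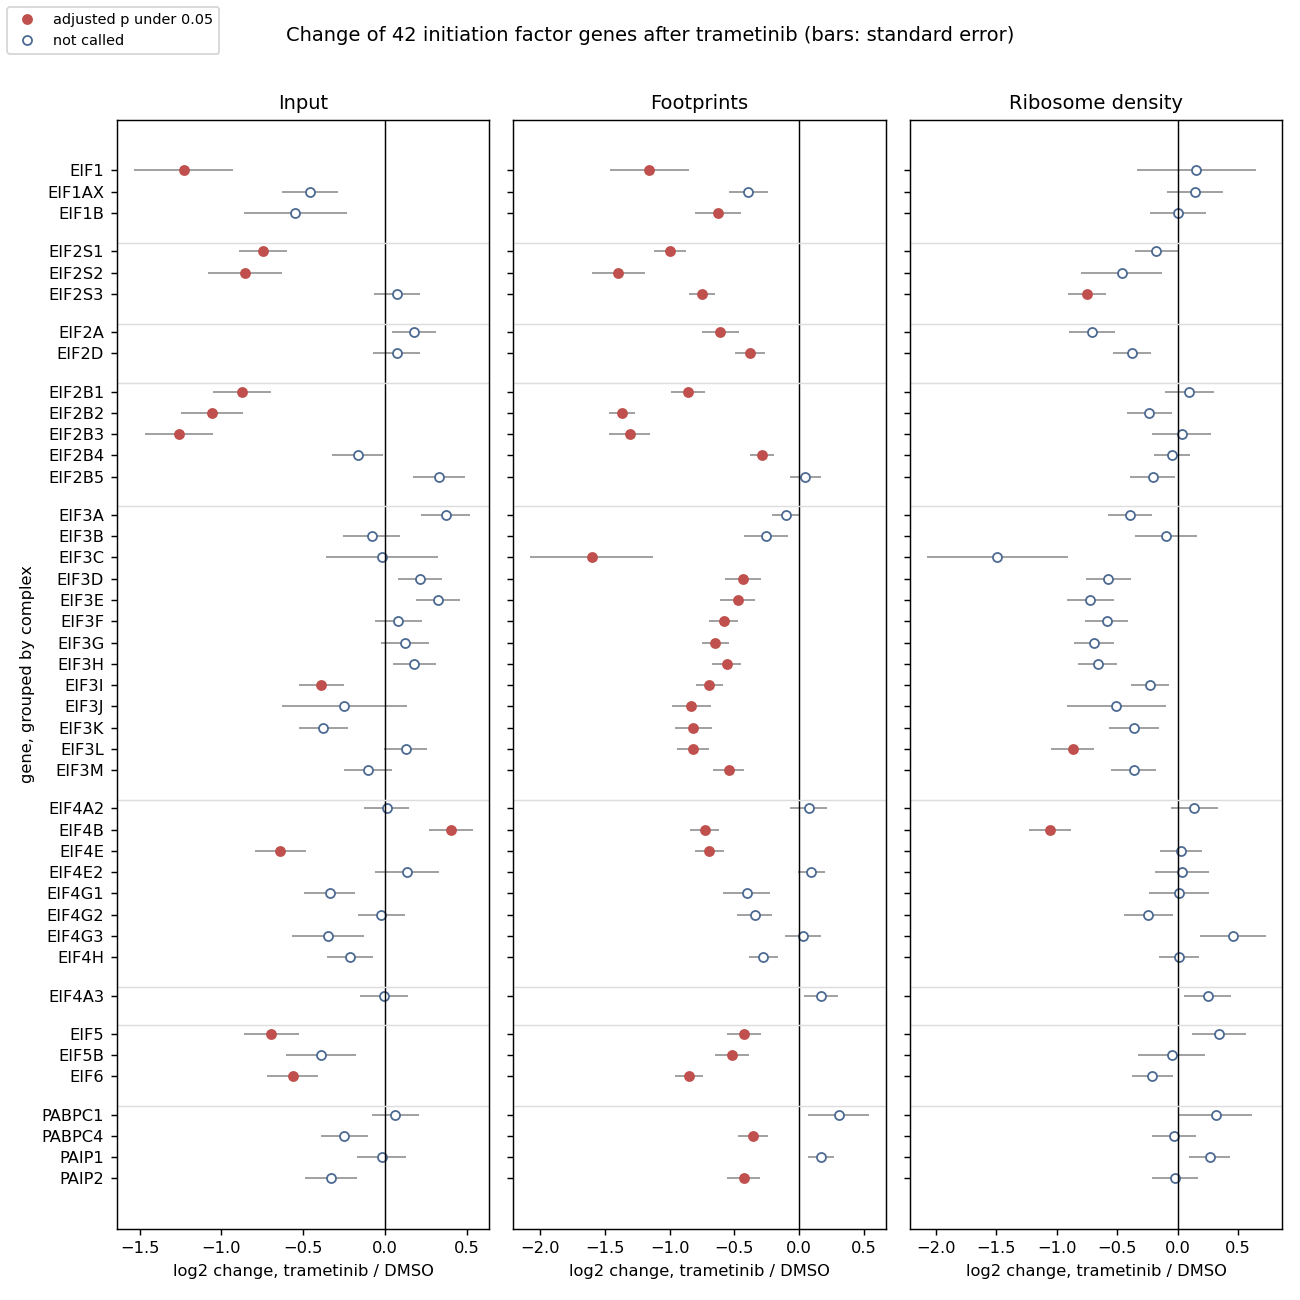
Log2 change of trametinib over DMSO in input, in footprints and in ribosome density for the 42 tested genes, one row per gene and grouped by complex, with standard errors as bars; filled points have an adjusted p under 0.05 in edgeR. In footprints 29 points are filled and all lie left of 0, whereas in ribosome density only EIF4B, EIF3L and EIF2S3 are filled.

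The number of calls depended on the libraries and on the test, and the direction of the called genes did not. The density count of 3 ranged from 1, EIF4B alone, to 5 when single libraries were left out, and was 8 without both DMSO libraries numbered 1, a setting chosen after seeing the data. DESeq2's likelihood ratio test called 9 of the 42 as lower in density, where it called 1.41% of all tested genes, and a term for each dish gave 6. EIF2A, EIF3G and EIF3H joined the 3 genes in all 3 of these settings. The footprint count of 29 ranged from 20 (without trametinib footprint replicate 1 or 2) to 33 (without DMSO footprint replicate 1), and it was 20 with library totals as scaling, under which EIF4E2 and PAIP1 rose. Library totals lost the footprint calls of EIF1B, EIF2D, EIF2B4, EIF3D, EIF3E, EIF5, EIF5B, PABPC4 and PAIP2 (edgeR adjusted p 0.0551 to 0.357). The EIF2B4 call was also lost without the filter (edgeR adjusted p = 0.0503). The input count of 10 ranged from 7 (without trametinib input replicate 2) to 11 (without DMSO input replicate 1).

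EIF4B, the RNA-binding cofactor of the eIF4A helicase, rose in input and fell in footprints. Input stood at 1651, 1498 and 1764 CPM in DMSO and 1959, 2257 and 2224 CPM after trametinib. Footprints stood at 592, 511 and 622 CPM in DMSO and 355, 356 and 377 CPM after trametinib. The trametinib libraries were thus all above the DMSO libraries in input and all below them in footprints. The log2 change was 0.40 ± 0.13 in input (edgeR adjusted p = 0.0352) and -0.73 ± 0.11 in footprints (edgeR adjusted p = 0.000857), so that ribosome density changed by -1.06 ± 0.17 (edgeR adjusted p = 0.0061), to 48.1% of DMSO. Relative to the median gene of the same dish, the density of EIF4B was 0.357, 0.338 and 0.350 in the DMSO dishes and 0.172, 0.152 and 0.164 in the trametinib dishes. This was the density call that held with every single library left out (adjusted p 0.00543 to 0.0339 in edgeR), and it held without both DMSO libraries numbered 1 (adjusted p = 0.00216). The rise in input was lost without DMSO input replicate 2 (adjusted p = 0.0933) or without trametinib input replicate 1, 2 or 3 (adjusted p = 0.0597, 0.133 and 0.126).

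The first bases of the EIF4B mRNA are shown because a 5′TOP message is defined by them, with those of other members of low density estimate that have such a run (EIF2S3, EIF2A, EIF3D and EIF3F) or lack it (EIF3C and EIF3J) and of EIF4A2 and EIF4A3, whose estimates were above 0. Each line gives the 10 bases before and the 20 bases from the annotated transcription start (RefSeq, GRCh38.p14, 5′ to 3′), and capitals mark the run of pyrimidines that begins with a C exactly at that start. The windows lie at chr12:53006446-53006475 (+ strand), chrX:24054946-24054975 (+ strand), chr3:150546777-150546806 (+ strand), chr22:36529147-36529176 (- strand), chr11:7987327-7987356 (+ strand), chr16:28688548-28688577 (+ strand), chr15:44537137-44537166 (+ strand), chr3:186783567-186783596 (+ strand) and chr17:80147109-80147138 (- strand).
EIF4B: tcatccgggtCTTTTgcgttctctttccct
EIF2S3: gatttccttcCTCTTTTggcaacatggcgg
EIF2A: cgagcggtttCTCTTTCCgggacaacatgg
EIF3D: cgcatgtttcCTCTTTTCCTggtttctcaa
EIF3F: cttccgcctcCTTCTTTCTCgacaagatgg
EIF3C: tcccacccccgtggcaggcagccctgcacc
EIF3J: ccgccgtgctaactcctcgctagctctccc
EIF4A2: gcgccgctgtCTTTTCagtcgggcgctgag
EIF4A3: cggcagcggcacagcgaggtcggcagcggc
EIF4A2 has such a run with a density change of 0.14 ± 0.20, and EIF4A3 has none and a change of 0.25 ± 0.19, and neither was called. EIF3C and EIF3J, both measured on few input reads, have no run at the start and estimates of -1.49 ± 0.58 and -0.51 ± 0.41, which were not called. Within 10 bases of the start they have runs of 5 and 6 bases, so that they lack a run only at the exact position.

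The start sequences were compared over the whole group. The set of RefSeq start sequences used here held entries for 35 of the 43 genes and for 34 of the 42 tested genes. It held none for EIF2S2, EIF3A, EIF3E, EIF3G, EIF3H, EIF3L, PABPC1 and PABPC4. The comparison thus leaves out EIF3L, called in density, and EIF3A, EIF3E, EIF3H and PABPC1, which carry the 5′TOP mark described below. A C at the annotated start followed by at least 4 bases that are each C or T was present in 9 of the 34 (26.5%): EIF2S3, EIF2A, EIF2D, EIF3D, EIF3F, EIF3K, EIF3M, EIF4A2 and EIF4B. The same letters were at the start of 7.80% of all tested genes and 4.07% of all 35116 promoters. The median density change was -0.57 in the 9 genes with the run and 0.00 in the 25 without it, beside -0.06 and 0.08 over all tested genes with and without it. Within eIF3 it was -0.47 in 4 subunits with the run and -0.37 in 4 without it, the latter including EIF3C and EIF3J. It was -1.01 in 47 ribosomal proteins with the run and -0.99 in 16 without it. In tested genes that are neither members nor ribosomal proteins it was -0.03 with the run and 0.08 without it. Allowing the run to begin within 10 bases on either side of the start, as first planned, it was found in 21 of the 34 (61.8%). It was then found in 42.2% of all tested genes and in 33.5% of all promoters. The medians were -0.24 with the run and 0.00 without it, beside 0.06 and 0.08 over all tested genes. Within eIF3 they were -0.54 in 6 subunits with the run and -0.16 in 2 without it. The stricter position was chosen after seeing the data, and a match of letters at an annotated start is a description and does not show which base a transcript begins with in these cells.

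**Figure D2:**
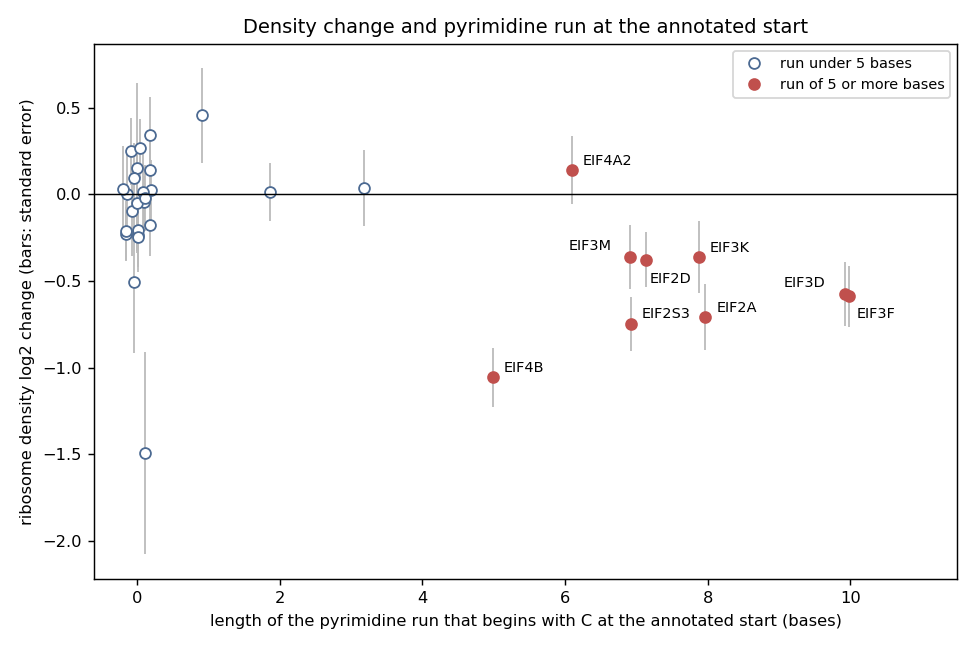
Ribosome density change (log2, trametinib over DMSO, standard errors as bars) against the length of the pyrimidine run beginning with C at the annotated start. The 34 tested genes with an entry in the set of start sequences used here are shown. Points are shifted slightly sideways to separate them, and the longest run is used for genes with several starts. Of the 9 genes with a run of 5 bases or more, 8 lie below 0 and EIF4A2 lies above it.

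The deposited table carries a 5′TOP mark of its own for 6 members, EIF3A, EIF3E, EIF3F, EIF3H, EIF4B and PABPC1. Their median density change was -0.63, and 1 of them, EIF4B, was called lower. In the 36 tested members without the mark the median was -0.07, and EIF3L and EIF2S3 were called lower. Within eIF3 the medians were -0.63 in the 4 subunits with the mark and -0.51 in the 9 without it. Among all 98 tested genes with the mark the median was -0.98 and 60 fell. The 79 cytosolic ribosomal proteins had a median of -1.01 with 55 lower. A list of 8 genes, the elongation factors EEF1A1, EEF1A2, EEF1B2, EEF1D, EEF1G and EEF2 together with EEF1E1 and TPT1, had a median of -1.03 with 5 lower. EIF4B stood at -1.06, PABPC1, not called, lay at 0.31 ± 0.30, or at 0.01 without both DMSO libraries numbered 1, and the eIF3 genes with the mark lay between -0.72 and -0.40.

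eIF3, the largest initiation complex, binds the small subunit and recruits it to the mRNA, and 11 of its 13 subunits fell in footprints. All 13 footprint estimates were below 0, with a median of -0.58, and EIF3A and EIF3B did not pass the test. In input the median was 0.08, and EIF3I was the subunit that fell (-0.39 ± 0.14, edgeR adjusted p = 0.0465), a call lost without DMSO input replicate 3 (adjusted p = 0.0951) or without trametinib input replicate 1, 2 or 3 (adjusted p = 0.139, 0.129 and 0.145). The EIF3I call was also lost with DESeq2 (adjusted p = 0.0534) and without the filter in edgeR (adjusted p = 0.0510). All 13 density estimates were below 0, with a median of -0.57 beside 0.07 for all genes. Of these, 1 passed the adjusted threshold and 8 had an unadjusted p under 0.05 in edgeR, as did 939 of the 10663 tested genes. The 13 of 13 below 0 held in 19 of 22 other settings, and EIF3B turned above 0 in the others (0.01 with library totals, 0.09 without DMSO input replicate 1 and 0.03 without DMSO footprint replicate 2). The 22 include the looser threshold of an adjusted p under 0.1, which leaves every estimate as it was.

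EIF3L had the lowest adjusted p of the complex in density. Its input stood at 656, 603 and 552 CPM in DMSO and 679.7, 642 and 639 CPM after trametinib, and the groups overlapped. EIF3L footprints stood at 171, 179 and 222 CPM in DMSO and 111, 114 and 115 CPM after trametinib, and all trametinib libraries were below all DMSO libraries. Density relative to the median gene was 0.260, 0.293 and 0.400 in the DMSO dishes and 0.155, 0.171 and 0.173 in the trametinib dishes. The changes were 0.13 ± 0.13 in input, -0.82 ± 0.12 in footprints (edgeR adjusted p = 0.000637) and -0.87 ± 0.17 in density (edgeR adjusted p = 0.0272). The density call was lost without DMSO input replicate 2 (adjusted p = 0.0649), DMSO footprint replicate 3 (0.0565), trametinib input replicate 1 (0.0592) or trametinib footprint replicate 1, 2 or 3 (0.0714, 0.0978 and 0.0515), with estimates of -0.92 to -0.75, and it held without both DMSO libraries numbered 1 (-1.03, adjusted p = 0.00208).

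EIF3E, EIF3F, EIF3H, EIF3K and EIF3M, which with EIF3A, EIF3C and EIF3L form the core of the complex, had density changes of -0.72 ± 0.19, -0.59 ± 0.18, -0.66 ± 0.16, -0.36 ± 0.21 and -0.36 ± 0.18. None of the 5 passed the test in edgeR (adjusted p = 0.143, 0.221, 0.0852, 0.682 and 0.614), whereas DESeq2 called EIF3E, EIF3F and EIF3H, as did edgeR without both DMSO libraries numbered 1 (adjusted p = 0.0247, 0.0401 and 0.0145). EIF3E was also called without DMSO footprint replicate 1 alone (edgeR adjusted p = 0.0486). All 5 fell in footprints, to 71.9%, 66.8%, 67.8%, 56.8% and 68.6% of DMSO (edgeR adjusted p = 0.0187, 0.00276, 0.0034, 0.00187 and 0.00553). The EIF3E call was lost without DMSO footprint replicate 3 (adjusted p = 0.0558) or trametinib footprint replicate 1 or 2 (0.0740 and 0.0856).

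EIF3B, EIF3G and EIF3I form a separate module of the complex with RNA recognition motifs and propeller folds. EIF3G fell in footprints (-0.65 ± 0.10, edgeR adjusted p = 0.00109) with a density change of -0.69 ± 0.16 (edgeR adjusted p = 0.0697), which was called without DMSO input replicate 3 (adjusted p = 0.0492) and without both DMSO libraries numbered 1 (0.0288). EIF3I fell in both input and footprints (-0.69 ± 0.11, edgeR adjusted p = 0.000826), and its density change was -0.23 ± 0.16. EIF3B, the subunit with the density estimate nearest 0 (-0.10 ± 0.26, 95% interval -0.65 to 0.46), had input of 374, 558 and 603 CPM in DMSO and 454, 519 and 465 CPM after trametinib. EIF3B footprints were 566, 886 and 822 CPM in DMSO and 641, 655 and 696 CPM after trametinib. DMSO library number 1 was the lowest EIF3B library in both assays, and the groups overlapped in both. The EIF3B footprint change of -0.26 ± 0.17 was -0.42 without DMSO footprint replicate 1, and was then called (edgeR adjusted p = 0.00302).

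EIF3A, the largest scaffold of the complex, was the subunit with the smallest footprint change (-0.10 ± 0.11, 95% interval -0.35 to 0.15). Its input was 810.2, 1000 and 736 CPM in DMSO and 1163, 1104 and 1000.3 CPM after trametinib, with the trametinib libraries all above the DMSO libraries and a change of 0.37 ± 0.15 (edgeR adjusted p = 0.0731, and 0.0263 without DMSO input replicate 2). EIF3A footprints were 1129, 1041 and 1054 CPM in DMSO and 1024, 1031 and 1088 CPM after trametinib, and the groups overlapped. EIF3D, which can bind the cap of some mRNAs, fell in footprints (-0.43 ± 0.14, edgeR adjusted p = 0.0269), a call lost when any single footprint library other than DMSO replicate 1 was left out (adjusted p 0.0606 to 0.0965), and its density change was -0.57 ± 0.19 (edgeR adjusted p = 0.293), which DESeq2 called (-0.65, adjusted p = 0.0360). EIF3J, a loosely bound subunit, fell in footprints (-0.83 ± 0.15, edgeR adjusted p = 0.00204), but its input rested on 10 to 29 counts per library, against 878 to 2213 footprint counts, and its density change was -0.51 ± 0.41.

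EIF3C was measured on few reads. Of its 30-base stretches of coding sequence, 99.5% also occur in EIF3CL, a near-identical copy, and reads shared between gene symbols were not counted. Counts of EIF3C were 10 to 17 in input and 5 to 31 in footprints. Its input stood at 6.04, 5.66 and 3.86 CPM in DMSO and 3.92, 6.37 and 5.06 CPM after trametinib, with overlap between the groups. EIF3C footprints stood at 1.01, 0.622 and 1.84 CPM in DMSO and 0.258, 0.552 and 0.481 CPM after trametinib, without overlap. The footprint change was -1.60 ± 0.48 (edgeR adjusted p = 0.0212), lost without DMSO footprint replicate 3 (adjusted p = 0.0856) or trametinib footprint replicate 1 or 3 (0.0914 and 0.0531), and the density change of -1.49 ± 0.58, the lowest of the members, was not called (edgeR adjusted p = 0.438).

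**Figure D3:**
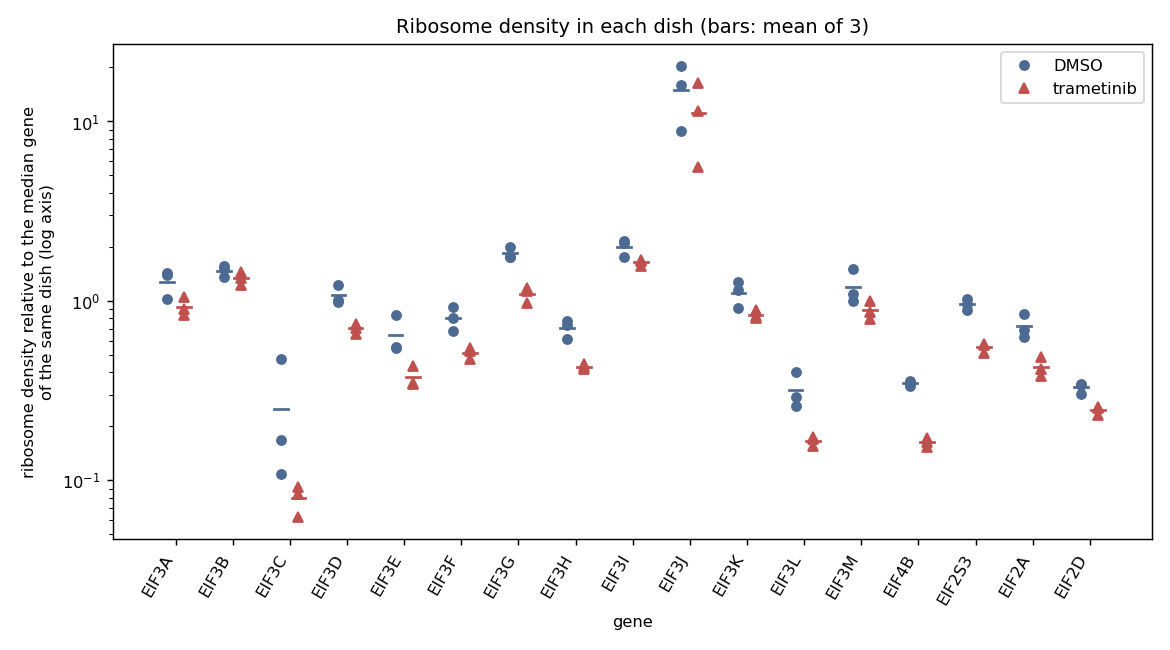
Ribosome density of the 13 eIF3 subunits and of EIF4B, EIF2S3, EIF2A and EIF2D in each dish, as footprints over input relative to the median gene of the same dish, on a log axis; short lines mark the mean of 3 dishes. The trametinib points of EIF4B, EIF2S3, EIF3L, EIF3G and EIF3H lie below all DMSO points, and those of EIF3J and EIF3B overlap with them.

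Subunits of one complex differed in how many footprints they carried. Per 1000 codons, and leaving out EIF3C, DMSO footprints ranged from 338 ± 48.9 CPM for EIF3L to 2702 ± 66.0 CPM for EIF3I (SD, n = 3). Trametinib footprints ranged from 200.3 ± 3.93 to 1748 ± 69.3 CPM per 1000 codons for the same 2 subunits, and the span from the lowest to the highest subunit was 6.71-fold to 9.32-fold in single footprint libraries. Set against the median subunit of the same library, EIF3I went from 2.95 to 2.34, EIF3L from 0.366 to 0.268 and EIF3A from 0.851 to 1.02. These relative levels carry no test. The whole complex took 39.7% ± 2.77 of the members' footprints in DMSO and 40.2% ± 0.705 after trametinib (SD, n = 3).

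**Figure D4:**
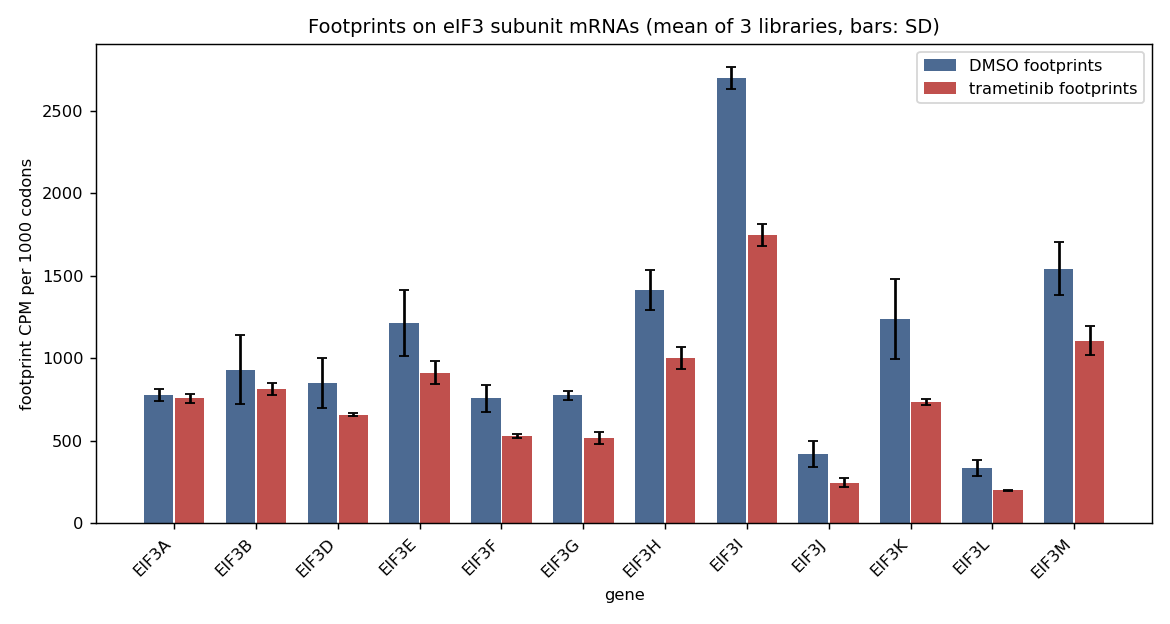
Footprint CPM per 1000 codons of 12 eIF3 subunits in DMSO and after trametinib, as means of 3 libraries with SD as bars and an axis from 0. EIF3I stands highest and EIF3L lowest in both treatments, and the bars of EIF3A are nearly equal.

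The subunits of eIF2, which delivers the initiator tRNA, all fell in footprints (3 of 3). The α subunit EIF2S1, the target of the stress kinases, fell in input (-0.74 ± 0.15, edgeR adjusted p = 0.00205) and in footprints (-0.996 ± 0.13, edgeR adjusted p = 0.000283). The β subunit EIF2S2 had input of 422, 307 and 197 CPM in DMSO and 183, 166 and 159 CPM after trametinib. EIF2S2 footprints were 968, 625 and 558 CPM in DMSO and 278, 269 and 309 CPM after trametinib. All trametinib libraries were below all DMSO libraries, and DMSO number 1 was the highest library in both assays. The changes of EIF2S2 were -0.86 ± 0.22 in input (edgeR adjusted p = 0.0112, and 0.0509 without trametinib input replicate 2) and -1.40 ± 0.20 in footprints (edgeR adjusted p = 0.000607). Without the DMSO library numbered 1 they were -0.56 and -1.11, and both were called (edgeR adjusted p = 0.0167 and 1.21e-06). Density did not pass the test for EIF2S1 (-0.18 ± 0.18) or EIF2S2 (-0.46 ± 0.34).

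EIF2S3, the γ subunit that binds GTP and the tRNA, fell in footprints and in density. Input stood at 218, 189 and 197 CPM in DMSO and 195, 219 and 216 CPM after trametinib, with overlapping groups. EIF2S3 footprints stood at 195, 184 and 203 CPM in DMSO and 116, 117 and 129 CPM after trametinib, with no overlap. The changes were 0.07 ± 0.14 in input, -0.75 ± 0.10 in footprints (edgeR adjusted p = 0.000395) and -0.75 ± 0.16 in density (edgeR adjusted p = 0.0368), and the density per dish was 0.891, 0.962 and 1.02 in the DMSO dishes and 0.567, 0.515 and 0.573 in the trametinib dishes. The density call was lost without DMSO input replicate 2 (adjusted p = 0.0969), DMSO footprint replicate 2 or 3 (0.0558 and 0.0827), trametinib input replicate 2 or 3 (0.0691 and 0.0545) or trametinib footprint replicate 1 or 2 (0.105 and 0.147), with estimates of -0.78 to -0.70. It was also lost with library totals (0.0584) and without the filter (0.0614), and it held without both DMSO libraries numbered 1 (-0.83, adjusted p = 0.00993). Of the 30-base stretches of EIF2S3, 62.3% also occur in EIF2S3B, so that it was measured on part of its reading frame.

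EIF2A and EIF2D, factors that can deliver initiator tRNA without eIF2, fell in footprints. Neither passed the test in input (0.18 ± 0.14 and 0.07 ± 0.15), and the footprint changes were -0.61 ± 0.14 for EIF2A (edgeR adjusted p = 0.0071) and -0.38 ± 0.11 for EIF2D (edgeR adjusted p = 0.0217). The EIF2D call was lost without DMSO footprint replicate 3 or any trametinib footprint library (adjusted p 0.0574 to 0.0906). Density was -0.71 ± 0.19 for EIF2A (edgeR adjusted p = 0.144, called by DESeq2, and in edgeR 0.0270 without DMSO footprint replicate 1 and 0.0158 without both DMSO libraries numbered 1) and -0.38 ± 0.16 for EIF2D (edgeR adjusted p = 0.49), and in both genes the trametinib dishes were below all DMSO dishes.

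The subunits of eIF2B, the exchange factor of eIF2, fell in footprints by 4 of 5 and in input by 3 of 5. EIF2B1, with -0.88 ± 0.18 in input and -0.86 ± 0.13 in footprints (edgeR adjusted p = 0.0025 and 0.000887), EIF2B2 and EIF2B3 fell in both assays. EIF2B4 fell in footprints alone (-0.29 ± 0.09, edgeR adjusted p = 0.0309), a call lost without any single footprint library other than DMSO replicate 1 (adjusted p 0.0746 to 0.118), and the catalytic subunit EIF2B5 did not pass either test. EIF2B3 had input of 27.3, 34.0 and 30.5 CPM in DMSO and 13.3, 11.9 and 12.7 CPM after trametinib. EIF2B3 footprints were 36.9, 45.7 and 54.9 CPM in DMSO and 18.1, 19.9 and 20.1 CPM after trametinib. EIF2B2 had input of 51.1, 42.8 and 47.5 CPM in DMSO and 19.2, 25.1 and 23.2 CPM after trametinib. EIF2B2 footprints were 83.3, 76.1 and 83.1 CPM in DMSO and 33.0, 31.1 and 34.1 CPM after trametinib. In both genes every trametinib library was below every DMSO library. The changes of EIF2B3 were -1.26 ± 0.21 in input (edgeR adjusted p = 0.000573) and -1.31 ± 0.16 in footprints (edgeR adjusted p = 0.000219), and those of EIF2B2 were -1.06 ± 0.19 (edgeR adjusted p = 0.000983) and -1.37 ± 0.10 (edgeR adjusted p = 1.16e-05). EIF2B5 had input of 56.5, 66.9 and 66.9 CPM in DMSO and 76.0, 87.1 and 74.2 CPM after trametinib, with no overlap and a change of 0.33 ± 0.16 (edgeR adjusted p = 0.13), and footprints of 63.2, 80.6 and 79.6 CPM in DMSO and 80.6, 78.3 and 82.4 CPM after trametinib, with overlap. The density estimates of the 5 subunits were -0.23 to 0.09, and none passed the test.

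EIF1, which guards start codon choice, fell in input and in footprints. Its input was 205, 112 and 85.4 CPM in DMSO and 74.0, 38.2 and 57.4 CPM after trametinib. EIF1 footprints were 1909.8, 816 and 829 CPM in DMSO and 547, 555 and 567 CPM after trametinib. All trametinib libraries lay below all DMSO libraries, and DMSO number 1 was the highest in both assays. The changes were -1.23 ± 0.30 in input (edgeR adjusted p = 0.00798) and -1.16 ± 0.31 in footprints (edgeR adjusted p = 0.0128, and 0.0502 without trametinib footprint replicate 3). Without the DMSO library numbered 1 they were -0.79 in input (edgeR adjusted p = 0.00931) and -0.62 in footprints (edgeR adjusted p = 0.000108). Its paralog EIF1B had input of 13.5, 11.7 and 12.0 CPM in DMSO and 7.44, 5.10 and 12.7 CPM after trametinib. EIF1B footprints were 68.3, 41.1 and 49.8 CPM in DMSO and 37.6, 37.3 and 33.2 CPM after trametinib, with overlap in input and none in footprints. EIF1B fell in footprints (-0.63 ± 0.18, edgeR adjusted p = 0.0177), a call lost without trametinib footprint replicate 2 or 3 (0.0509 and 0.0720), and the change was -0.40 without DMSO footprint replicate 1 (adjusted p = 0.01). The scanning factor EIF1AX passed neither test (-0.46 ± 0.17 in input and -0.39 ± 0.15 in footprints), although its input was called without DMSO input replicate 3 (edgeR adjusted p = 0.0115) and its footprints without DMSO footprint replicate 1 or trametinib footprint replicate 3 (0.0234 and 0.0276). With the replicate number as a block, EIF1AX was called lower in footprints (-0.40, edgeR adjusted p = 0.0161), as it was by DESeq2 (-0.39, adjusted p = 0.0473). The labels do not state that equal numbers pair across treatments. The density estimates of the 3 genes were 0.00 to 0.15, none of them called, and each turned below 0 when 1 or more of the single libraries was left out.

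EIF5, which triggers GTP hydrolysis by eIF2, fell in input (-0.69 ± 0.17, edgeR adjusted p = 0.00678) and in footprints (-0.43 ± 0.13, edgeR adjusted p = 0.0256, lost without DMSO footprint replicate 3 or any trametinib footprint library, at 0.0686 to 0.102). EIF6, which keeps free large subunits apart from small ones, fell in input (-0.57 ± 0.15, edgeR adjusted p = 0.0139, lost without trametinib input replicate 1 or 2, at 0.0829 and 0.0525) and in footprints (-0.85 ± 0.11, edgeR adjusted p = 0.000296), and 36.0% of the 30-base stretches of its coding sequence also occur in another annotated gene. The subunit joining factor EIF5B fell in footprints alone (-0.52 ± 0.13, edgeR adjusted p = 0.011, lost without trametinib footprint replicate 1 or 2, at 0.0570 and 0.0606). None of the 3 was called in density (-0.21 to 0.34).

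Among the other cap-binding and helicase factors, the cap-binding protein EIF4E fell and its scaffolds did not pass the test. EIF4E had input of 108, 137 and 118 CPM in DMSO and 72.1, 81.2 and 77.6 CPM after trametinib. EIF4E footprints were 366, 379 and 394 CPM in DMSO and 250.3, 223 and 264 CPM after trametinib. Both assays showed no overlap, and the changes were -0.64 ± 0.16 (edgeR adjusted p = 0.00728) and -0.69 ± 0.11 (edgeR adjusted p = 0.00092), with a density change of 0.02 ± 0.17. Its relative EIF4E2, a cap binder known as a repressor, had input of 42.96, 53.8 and 70.0 CPM in DMSO and 54.8, 59.1 and 67.5 CPM after trametinib. EIF4E2 footprints were 52.2, 48.0 and 51.6 CPM in DMSO and 53.2, 55.4 and 61.1 CPM after trametinib, with overlap in input, none in footprints and a footprint change of 0.09 ± 0.10 (edgeR adjusted p = 0.469). The count ratio of EIF4E2 to EIF4E within a library, which needs no scaling, was 0.398, 0.394 and 0.592 in DMSO input and 0.761, 0.728 and 0.870 in trametinib input. In footprints the ratio was 0.142, 0.126 and 0.131 in DMSO and 0.212, 0.249 and 0.231 after trametinib. It was 0.79 higher on the log2 scale in both assays, without overlap (exact permutation test, two-sided, p = 0.1, the smallest possible, and 0.25 adjusted over 10 ratios).

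EIF4G1, the main scaffold, had input of 568, 620.1 and 763 CPM in DMSO and 461, 492 and 576 CPM after trametinib. EIF4G1 footprints were 539, 895 and 643 CPM in DMSO and 530.2, 529 and 582 CPM after trametinib. The groups overlapped in both assays, and the changes of -0.34 ± 0.16 and -0.41 ± 0.18 were not called (edgeR adjusted p = 0.116 and 0.096). Without the DMSO library numbered 1 they were -0.43 in input and -0.55 in footprints, and both were called (edgeR adjusted p = 0.0322 and 0.00311). EIF4G2, which lacks the binding site for eIF4E, had input of 2077, 1769.8 and 1503 CPM in DMSO and 1739, 1801 and 1680.1 CPM after trametinib. EIF4G2 footprints were 728, 549.7 and 565 CPM in DMSO and 487, 490.0 and 542 CPM after trametinib, with overlap in input and none in footprints (-0.34 ± 0.14, edgeR adjusted p = 0.0655). EIF4G3 had input of 60, 67.2 and 49.5 CPM in DMSO and 61.1, 33.1 and 43.02 CPM after trametinib. EIF4G3 footprints were 63.0, 68.5 and 48.8 CPM in DMSO and 63.5, 64.3 and 64.3 CPM after trametinib, with overlap in both, and its density change of 0.46 ± 0.27, the highest of the members, was not called (edgeR adjusted p = 0.7). The ratios of EIF4G2 to EIF4G1 and of EIF4G3 to EIF4G1 overlapped between the groups in both assays. EIF4H, a cofactor like EIF4B, passed neither test, with -0.28 ± 0.11 in footprints (edgeR adjusted p = 0.0666, and 0.0251 without DMSO footprint replicate 1) and 0.01 ± 0.17 in density.

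The helicase EIF4A2 had input of 444, 409 and 387 CPM in DMSO and 439.5, 380.3 and 419 CPM after trametinib. EIF4A2 footprints were 414, 304 and 408 CPM in DMSO and 412, 373 and 455 CPM after trametinib, and the groups overlapped in both, with changes of 0.01 ± 0.14 and 0.07 ± 0.14. EIF4A1 had 0 to 1 count in every input library and 0 to 3 counts in every footprint library, and no level or ratio to EIF4A2 was formed. Its coding sequence shares 0% of its 30-base stretches with another gene in Gencode release 44. Reads were counted on release 38, so that this does not show whether reads were shared in the counting. Why EIF4A1 has so few counts was not tested. EIF4A3, a helicase of the exon junction complex, had footprints of 631, 763 and 829 CPM in DMSO and 876, 808 and 925 CPM after trametinib with overlap, input of 279, 327 and 356 CPM in DMSO and 334, 286 and 329 CPM after trametinib with overlap, and a density per dish of 2.25, 2.31 and 2.31 in the DMSO dishes and 2.495, 2.72 and 2.71 in the trametinib dishes. It was the 1 gene of the 42 whose trametinib dishes lay above all DMSO dishes, where 9.13% of genes did, and the change of 0.25 ± 0.19 was not called (edgeR adjusted p = 0.812). In 16 of the 42 the trametinib dishes lay below all DMSO dishes, where 8.16% of genes did.

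**Figure D5:**
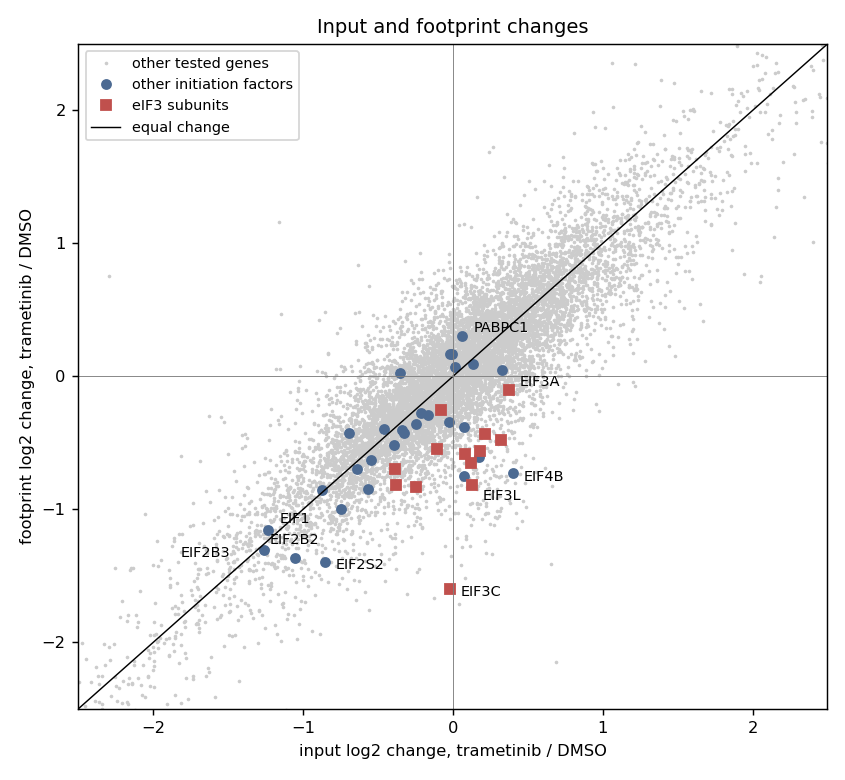
Footprint change against input change (log2, trametinib over DMSO) for all tested genes within the axis limits, with the eIF3 subunits as squares, the other 29 tested members as circles and the line of equal change. EIF2B1, EIF2B2, EIF2B3, EIF1 and EIF4E lie near the line at negative values, whereas EIF4B, EIF3L and most eIF3 subunits lie below it.

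The poly(A)-binding proteins, which bridge the mRNA tail to eIF4G, numbered 2 here, of which 1 fell in footprints. PABPC1 had input of 2303, 2044 and 2031 CPM in DMSO and 2412, 1839 and 2359.9 CPM after trametinib, with overlap, at 3343 ± 241 CPM per 1000 codons in DMSO (SD, n = 3). PABPC1 footprints were 219, 283 and 465 CPM in DMSO and 418, 389.8 and 438 CPM after trametinib, also with overlap, and DMSO number 1 was the lowest. The footprint change of 0.30 ± 0.24, the highest of the members, was not called (edgeR adjusted p = 0.31), and it was 0.09 without DMSO footprint replicate 1 (adjusted p = 0.638) and 0.66, and called, without DMSO footprint replicate 3 (adjusted p = 0.00749). Its density per dish, 0.0945, 0.137 and 0.227 in the DMSO dishes and 0.165, 0.205 and 0.179 in the trametinib dishes, had the lowest DMSO mean of the tested members, and 25.1% of the 30-base stretches of its coding sequence also occur in PABPC3. PABPC4 had input of 285, 319 and 325 CPM in DMSO and 283, 226 and 266 CPM after trametinib. PABPC4 footprints were 123, 128 and 158 CPM in DMSO and 112, 107 and 113 CPM after trametinib, without overlap, and fell in footprints (-0.36 ± 0.12, edgeR adjusted p = 0.0323), a call lost without any single footprint library other than DMSO replicate 1 (adjusted p 0.0557 to 0.114). The ratio of PABPC4 to PABPC1 was lower after trametinib without overlap, by 0.31 in input and 0.72 in footprints on the log2 scale (exact permutation test, two-sided, p = 0.1 and 0.25 adjusted over 10 ratios).

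PAIP1, a partner of the poly(A)-binding protein that stimulates translation, had input of 191, 173 and 146 CPM in DMSO and 163, 172 and 164 CPM after trametinib. PAIP1 footprints were 178, 173 and 191 CPM in DMSO and 216, 197 and 224 CPM after trametinib. The footprint libraries did not overlap, and the change of 0.17 ± 0.10 was not called (edgeR adjusted p = 0.2). PAIP2, which displaces the protein from the tail, fell in footprints (-0.43 ± 0.13, edgeR adjusted p = 0.0229), a call lost without DMSO footprint replicate 3 or trametinib footprint replicate 1 or 2 (adjusted p 0.0679 to 0.107), and its density did not pass the test (-0.02 ± 0.19).

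The members covered a wide range of ribosome density in DMSO. Relative to the median gene of a dish, the means were 15.0 ± 5.77 for EIF3J, 8.71 ± 1.30 for EIF1, 4.36 ± 0.483 for PAIP2 and 4.22 ± 0.781 for EIF1B (SD, n = 3). The value of EIF3J rests on 13 to 29 input counts per DMSO library, so that its level is uncertain. At the other end stood EIF4B at 0.348 ± 0.00993, EIF4G2 at 0.343 ± 0.0334, EIF2D at 0.330 ± 0.0230, EIF3L at 0.318 ± 0.0732 and PABPC1 at 0.153 ± 0.0677. EIF4B, EIF4G2, EIF2D and EIF3L, neighbours at the low end, had DMSO means that differed by less than the SD of EIF3L, and EIF3C, measured on few reads, stood at 0.250 ± 0.196.

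Genes that regulate initiation, taken from a list of 35, of which 33 were tested, are described by counts. In input 11 fell and 2 rose, beside 16.8% and 15.4% of all tested genes. In footprints 10 fell and 7 rose, beside 25.6% and 23.9% of all tested genes, and in density 0 of the 33 were called by edgeR, with 4 at an unadjusted p under 0.05. EIF4EBP1, the repressor that binds eIF4E, had input of 38.3, 26.2 and 21.3 CPM in DMSO and 10.6, 8.07 and 5.06 CPM after trametinib, a change of -1.83 ± 0.31 (edgeR adjusted p = 0.000632). PDCD4, which blocks eIF4A, rose in input by 0.72 ± 0.23 (edgeR adjusted p = 0.0311), and so did GIGYF2, a partner of EIF4E2, by 0.55 ± 0.18 (edgeR adjusted p = 0.0320). PABPC1L and PPP1R15A, the latter a subunit of a phosphatase that acts on eIF2, fell in input (-1.58 ± 0.46 and -1.29 ± 0.43, edgeR adjusted p = 0.0187 and 0.0360). PPP1R15A input was 199, 70.0 and 41.7 CPM in DMSO and 35.6, 50.1 and 40.9 CPM after trametinib, with DMSO number 1 far above the rest. Without both DMSO libraries numbered 1, EIF4EBP1 (-1.56), PDCD4 (1.01) and GIGYF2 (0.64) were called in input, and PABPC1L (-0.99, adjusted p = 0.0631) and PPP1R15A (-0.40, adjusted p = 0.176) were not.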

How the data were processed

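Input RNA and ribosome footprints were sequenced from HCT116 cells, with 3 libraries for each treatment and assay. The authors removed adapters (FASTX toolkit) and reads matching rRNA and tRNA, aligned the rest with Bowtie 1.2.2 to Gencode V38 basic transcripts, and deposited raw counts of reads of 25 to 35 bases that fell in open reading frames of a single gene symbol. The deposited signal columns hold the same counts divided by size factors of the authors' DESeq2 run, and served as a check of the counts only. The deposited table also holds the authors' fold changes and p-values from DESeq2 1.46.0, which were not used, and a 5′TOP mark.

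Samples were grouped by their titles. Genes were kept if 3 or more input libraries held 10 or more counts, and edgeR 4.0.16 (R 4.3.3, TMM, quasi-likelihood) was fitted to the 6 input libraries, to the 6 footprint libraries, and to all 12 for ribosome density, tested as the interaction of assay and treatment. The density fit held no term for the dish, which was added as an alternative. An adjusted p under 0.05 over all tested genes was called. The median standard error of the members was 0.150 in input, 0.131 in footprints and 0.190 in density. The fits were tested on simulated data of 10663 genes, and not on the members alone. Over all tested genes the median standard error of density was 0.266, so that the recovery below need not hold for the members. Of 100 genes given a log2 change of 0.7, the density fit recovered 4 and the footprint fit 38. Of 100 given a log2 change of 1, they recovered 37 and 87. False calls numbered 2 in density and 6 in footprints at either size. A density change of such a size that was not called is therefore not shown to be absent. Paralog ratios and library shares used exact permutation tests.

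Alternatives were DESeq2 1.42.0 (likelihood ratio test for density, the kind of test the study used), limma-trend 3.58.1 with a prior count of 2, other size factors, other filters, a looser threshold, a replicate block and leaving out libraries. For equal numbers across treatments, the correlation of deviations from the group means was taken over 5865 genes. For numbers 1, 2 and 3 it was 0.138, 0.134 and 0.322 in footprints and 0.0721, 0.0533 and 0.390 in input. Unequal numbers were not compared, so that these values cannot show whether equal numbers belong together. Members and lists were chosen with earlier results of these data known. Values in every library are given for members called in density, the eIF3 subunits farthest from the eIF3 median, the 3 largest changes up and down in input and in footprints, and the paralog pairs.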

Additional observations from a re-analysis of the deposited data

How the results depend on the processing

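The alternatives gave 2099 estimates for single members, including those at the looser threshold, which cannot turn a sign. Of the 2099, 108 had another sign than in the reported fit, and 0 of these were called in either. Among them were EIF3A footprints (0.08 with library totals) and the density of EIF4E2 (-0.19 without DMSO input replicate 3) and EIF1B (-0.29 without trametinib input replicate 2). In input, 1 member rose in the reported fit, 2 with a replicate block (12 then fell, EIF1AX and EIF3K besides the 10), 3 at an adjusted p under 0.1, and 0 to 1 with a library left out. In footprints, 0 rose in the reported fit, 2 with library totals as scaling, and 0 to 1 with a library left out, and the median change was -0.35 with library totals. The members lower in density numbered 3 in the reported fit and with a replicate block, 2 with library totals or without the filter, 5 with median-of-ratios size factors or at an adjusted p under 0.1, 9 with DESeq2, 6 with a replicate block by dish, 1 to 5 with a library left out, and 8 without both DMSO libraries numbered 1, the last chosen after seeing the data. The share of input counts was higher after trametinib by 0.0292 percentage points, or by 0.0663 without ribosomal protein and mitochondrially encoded genes in the denominator. Over all genes, density was called higher for 10 and lower for 87, against 5 and 107 with median-of-ratios size factors, 27 and 78 with library totals, 6 and 90 with a filter on libraries of either kind, 37 and 150 with DESeq2, 30 and 110 at an adjusted p under 0.1, and 31 and 127 with a replicate block by dish. Library totals moved the median of all genes to 0.165 in footprints and 0.176 in density, and the members' median density change to -0.0862. The replicate block changed 1 call of a member in footprints, EIF1AX, and 0 in density. The median standard error of density was 0.190 for the members and 0.266 for all tested genes, and input depth was not varied.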
